A study of Mus musculus with 9 samples.

Results

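The 8 genes described here are mouse counterparts of genes whose inherited variants cause or have been linked to Parkinson disease: Lrrk2, Vps35, Synj1, Atp13a2, Pink1, Park7, Fbxo7 and Uchl1. They were taken as a list of symbols and matched to gene identifiers through GENCODE M21, with no threshold on a measured value but with earlier results of these data known, and 8 of 8 were found among 55450 genes counted. The question was how their RNA levels compared between nigral tissue of 3 groups of mice, with 3 libraries in each group. The control group (CTR) is labelled only as GFP. By the paper's results its control consisted of CX3CR1-CreERT2 mice injected with a Cre-dependent lentiviral vector for destabilized GFP. The CX3 group consisted of CX3CR1-CreERT2 mice that received a Synuclein-expressing vector, and the DAT group of DAT-Cre mice that received the Synuclein-expressing vector. The CX3CR1-CreERT2 allele places a tamoxifen-dependent Cre at the Cx3cr1 locus, which is active in microglia, and the DAT-Cre allele places Cre at the dopamine transporter locus, Slc6a3. According to the methods the mice were male, the vector was injected on both sides of the brain, and the tissue was dissected by hand from saline-perfused animals 5 weeks later. The age at injection is given as 8 weeks in one place and the purchased mice as 9 weeks old in another. The CX3CR1-CreERT2 mice of CTR and CX3 received tamoxifen after surgery, which the methods do not mention for DAT-Cre mice. By the paper's account, and not by the CTR label, CTR and CX3 thus shared the Cre line and differed in the vector. DAT and CTR differed at once in the Cre line, in tamoxifen and in the vector, which cannot be told apart in any difference between them. CX3 and DAT shared the Synuclein-expressing vector but differed in the Cre line, with the cells it targets, and in tamoxifen, which cannot be told apart either. The sources do not give the number of animals behind a library, so the spread between libraries, and every p-value, may be technical.

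Most of these genes act in 2 cellular systems that neurons with long, heavily branched axons depend on. Lrrk2, Vps35, Synj1 and Atp13a2 serve the traffic of membranes between synapse, endosome and lysosome. Pink1, Park7 and Fbxo7 serve the care of mitochondria, and Uchl1 the turnover of ubiquitin. In people, recessive loss of Pink1, Park7, Atp13a2, Fbxo7 or Synj1 gives parkinsonism of early onset, whereas variants of Lrrk2 and Vps35 are dominant and the link of Uchl1 is debated.

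Reads counted on genes numbered 21592817 to 39475428 per library, and values are given as CPM, each gene's share of the scaled library total as edgeR gives it. Markers of dopaminergic neurons were detected in all groups, with 10 of 10 tested and a summed level of 957 to 966 CPM in CTR, 1166 to 1186 in CX3 and 821 to 833 in DAT. The 8 general neuron markers summed to 3942 to 3954 CPM in CTR, 4364 to 4395 in CX3 and 6186 to 6369 in DAT, and the 10 microglia markers to 1660 to 1689, 1139 to 1177 and 776 to 857 CPM. None of these markers was at 0 in a group. Cx3cr1 itself, the locus of the CX3CR1-CreERT2 allele, had 102 CPM in CTR, 44.6 in CX3 and 83.4 in DAT. Slc6a3, the locus of the DAT-Cre allele, had 130 CPM in CTR, 195 in CX3 and 91.1 in DAT. Both genes are counted among the microglia and dopaminergic markers above, and the reason for their differences was not tested. Genes of neighbouring tissue also moved with the groups. The 6 choroid plexus markers summed to 34.4 to 37.3 CPM in CTR, 1468 to 1579 in CX3 and 868 to 1039 in DAT, and the 5 markers of hypothalamic neurons to 2.53 to 3.09, 20.9 to 21.7 and 18.2 to 23.4 CPM. Of these 5, all were called higher in DAT (median log2 3.46), and in CX3 2 were higher and 3 not called (median 0.42). In bulk tissue, fewer cells of a type and less RNA per cell cannot be told apart, and the part that these differences in tissue make-up had in the results below was not tested. Library B of the DAT group stood apart from A and C, with correlations of log2 CPM of 0.995 against 0.997 between A and C. Library A of the CX3 group had 19.0% unmapped reads against 13.9% and 13.8% in B and C. The CTR libraries had 19.4% to 19.6% unmapped reads and the lowest DAT library 17.7%. By this share CX3 B and C, and not CX3 A, lay below all other libraries.

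The 8 genes divided sharply by comparison. In DAT tissue, 7 of 8 were higher than in CTR and none was lower, by an adjusted p below 0.05, where 32.0% of the 20892 genes tested were higher and 27.9% lower. In CX3 tissue, 1 of 8, Synj1, was lower than in CTR and none was higher, where 16.5% of all genes tested were lower and 14.0% higher. Between the groups given the Synuclein-expressing vector, 6 of 8 were lower in CX3 than in DAT and none was higher, against 31.3% and 27.6% of all genes tested. The median log2 fold change of the 8 genes was 0.39 for DAT over CTR, -0.01 for CX3 over CTR and -0.40 for CX3 over DAT, while the median over all genes lay within 0.0103 of 0 in each comparison. The median size of the change, without its sign, was 0.39 for the 8 genes and 0.39 for all genes in DAT over CTR, and 0.08 against 0.19 in CX3 over CTR. Without CX3 A and DAT B, 5 of 8 genes were higher and 1 lower in DAT than in CTR, 2 were higher and 2 lower in CX3 than in CTR, and 1 was higher and 6 lower in CX3 than in DAT. Over all 21 alternative settings, 12 gave 5 higher and 1 lower in DAT than in CTR, the lower gene being Vps35, among them the size factors and the test of DESeq2, and only the setting without DAT C again gave 7 higher. With library size alone as the scale, which moved the median of all genes in DAT over CTR by log2 -0.15, 5 of the 8 were higher and 1 lower in DAT than in CTR, 1 was higher and none lower in CX3 than in CTR, and 1 was higher and 4 lower in CX3 than in DAT. The share of all calls for DAT over CTR that were higher was 37.8% on that scale and 53.4% with the trimmed mean of M values (TMM), the scale of the other values. For these alternative settings the share of all genes called is not set beside the counts. The counts therefore show only how the calls of the 8 genes moved.

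**Figure D1:**
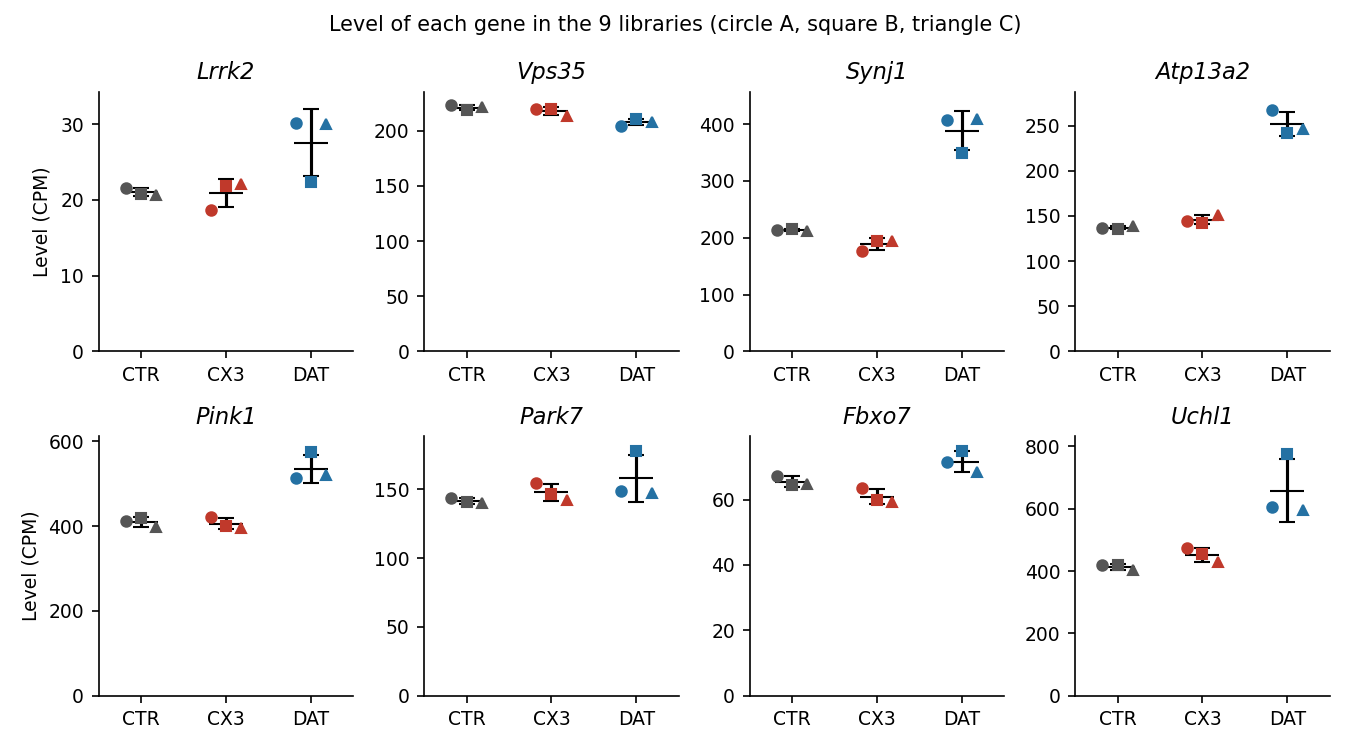
Level of each of the 8 genes in CPM (vertical axes, from 0) in the 3 libraries of each group (circle A, square B, triangle C), with the mean and SD of the group in black. The DAT libraries of Synj1 lie between 348 and 409 CPM and those of Atp13a2 between 241 and 267, above all CTR and CX3 libraries, while the Vps35 libraries of all groups lie between 205 and 223 CPM.

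The single libraries were also compared for overlap between groups, in either direction. The libraries of DAT and CTR did not overlap for 8 of 8 genes, with Vps35 lower in DAT, against 64.1% of all genes. Those of CX3 and DAT did not overlap for 7 of 8, with Vps35 higher in CX3, against 61.0%. For CX3 and CTR the ranges were apart for 4 of 8 genes (Atp13a2, Uchl1, Synj1 and Fbxo7), close to the 49.3% of all genes. Of these 4 genes, only Synj1 passed the test between CX3 and CTR.

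**Figure D2:**
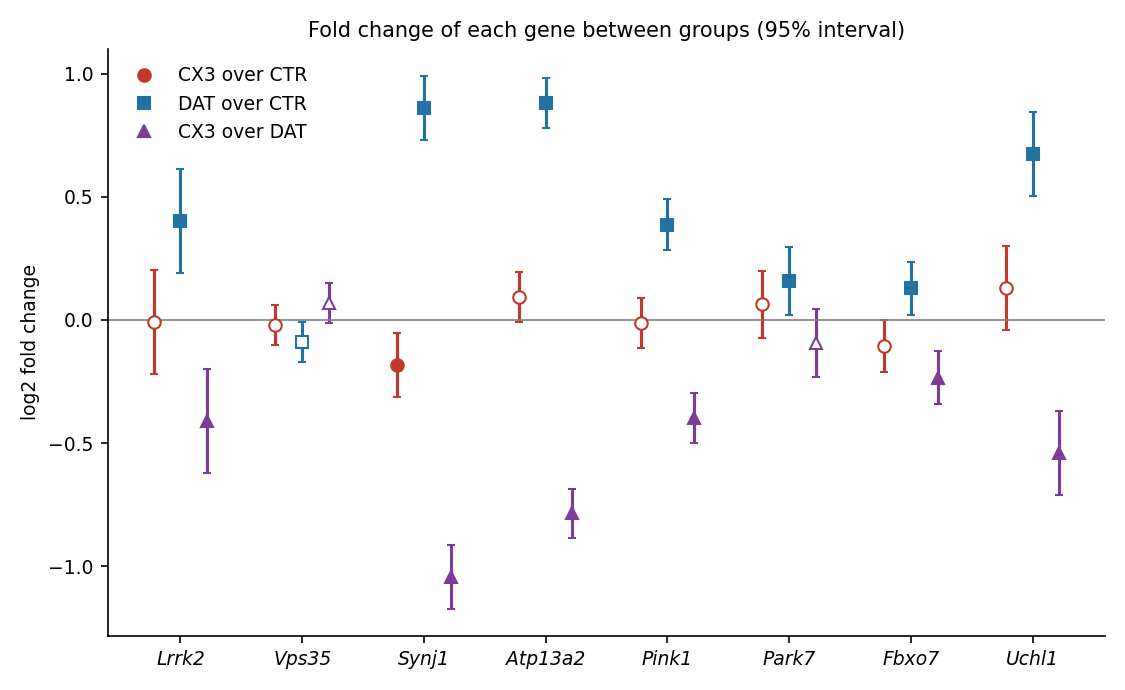
Log2 fold change of each gene (vertical axis) with its 95% interval for CX3 over CTR (red circles), DAT over CTR (blue squares) and CX3 over DAT (purple triangles); filled symbols have an adjusted p below 0.05 and open symbols do not. The blue squares of Atp13a2, Synj1 and Uchl1 stand at 0.88, 0.86 and 0.67, and the red circles lie between -0.18 and 0.13.

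Per length of exon, the genes differed widely in level. In CTR, Uchl1 had 253 ± 5.50 CPM per kb (SD, n = 3), followed by Pink1 with 153 ± 4.20, Park7 with 57.1 ± 0.770, Synj1 with 26.4 ± 0.179, Vps35 with 24.8 ± 0.222, Atp13a2 with 22.8 ± 0.290, Fbxo7 with 10.6 ± 0.259 and Lrrk2 with 1.78 ± 0.0450. Every gene of this order had its lowest CTR library above the highest of the next. In CX3 the levels of Vps35 (24.5 ± 0.424 CPM per kb), Atp13a2 (24.3 ± 0.770) and Synj1 (23.3 ± 1.33) overlapped and were not separated. In DAT, Synj1 (48.0 ± 4.26) and Atp13a2 (41.9 ± 2.25) overlapped with each other, and both lay above Vps35 (23.3 ± 0.314), so that Vps35 went from the fifth place in CTR to the sixth in DAT. The lengths are those of all annotated exons of a gene together, so the order depends on that definition.

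Lrrk2 (ENSMUSG00000036273.15, chromosome 15 from 91673175 to 91816120, GRCm38) encodes a large kinase that phosphorylates Rab GTPases on endosomal and lysosomal membranes. It had 21.6, 20.7 and 20.7 CPM in CTR, 18.7, 21.9 and 22.1 in CX3 and 30.2, 22.4 and 30.0 in DAT, from 446 to 1102 counts per library. The DAT libraries lay above all others, but DAT B only narrowly, and CX3 A was the lowest of the 9. The fold change of DAT over CTR was 1.32 (95% interval 1.14 to 1.53, log2 0.40 ± 0.10 SE, adjusted p = 0.0029), and without DAT B the log2 value was 0.52. For CX3 over CTR it was 0.99 (0.86 to 1.15, adjusted p = 0.96), with the 3 CTR libraries inside the range of CX3. CX3 was lower than DAT (log2 -0.41 ± 0.10 SE, adjusted p = 0.0023).

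Among 15 tested genes for Rab substrates and partners of Lrrk2, 9 were higher and 2 lower in DAT than in CTR, with a median log2 of 0.25, and 2 were higher and 1 lower in CX3. Mapk8ip3, which encodes a motor adaptor that binds phosphorylated Rab proteins, rose most in DAT, from 299 ± 7.01 to 592 ± 53.5 CPM (SD, n = 3, log2 0.99, adjusted p = 3.64e-09). It had 288 ± 9.18 CPM in CX3, which did not differ from CTR beyond the spread (adjusted p = 0.54). The Rab substrate genes Rab12 and Rab35 rose in both groups. Rab12 rose by log2 0.29 in CX3 and 0.43 in DAT. Rab35 rose by log2 0.49 in DAT and by 0.12 in CX3, the latter close to the threshold (adjusted p = 0.048). Rilpl1, which encodes an effector of phosphorylated Rab proteins, fell in CX3 (log2 -0.24) and rose in DAT (log2 0.25).

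Vps35 (ENSMUSG00000031696.9, chromosome 8 from 85260392 to 85299802) encodes the core subunit of retromer, the coat that returns cargo from endosomes. It was the most even of the 8 genes, with 223, 219 and 221 CPM in CTR, 220.0, 220.1 and 213 in CX3 and 205, 210.3 and 208 in DAT. The DAT libraries were all lower than the CTR libraries, by log2 -0.09 ± 0.04 SE, which missed the threshold (adjusted p = 0.054, interval of the fold 0.89 to 0.99). The difference passed the test in 13 of 21 alternative settings, among them those without DAT B (log2 -0.10, adjusted p = 0.012), CTR B, CX3 A or CX3 C, and the adjusted p over all 21 ran from 9.55e-05 to 1.00. CX3 and CTR overlapped, with a fold of 0.99 and an interval of 0.93 to 1.04, and CX3 did not pass against DAT (log2 0.07, adjusted p = 0.13). Against DAT it was called higher in 7 of 21 alternative settings, among them those without DAT B (log2 0.09, adjusted p = 0.027) and with library size alone (log2 0.26, adjusted p = 3.94e-05).

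The other retromer genes and their partners moved in no common direction. Of 16 tested, 5 were higher and 5 lower in DAT, and 1 was higher and 5 lower in CX3, with medians of -0.04 and -0.07. In CX3, Washc2, a subunit of the WASH complex that retromer recruits, fell from 120.0 ± 2.08 to 96.6 ± 4.55 CPM (log2 -0.31, adjusted p = 0.00051), and Washc5 of the same complex by log2 -0.25. Snx1, a sorting nexin that bends the endosomal membrane, fell in both groups, by log2 -0.25 in CX3 and -0.29 in DAT, whereas Washc2 had a log2 of 0.07 in DAT (adjusted p = 0.29).

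Synj1 (ENSMUSG00000022973.18, chromosome 16 from 90936092 to 91011308) encodes synaptojanin 1, the phosphoinositide phosphatase that lets clathrin-coated vesicles uncoat at the synapse. It was the only one of the 8 called in all 3 comparisons, with the groups in the order CX3, CTR, DAT. Its levels were 214, 215 and 213 CPM in CTR, 176, 194 and 195 in CX3 and 407, 348 and 409 in DAT, with no overlap between any groups. DAT was 1.82-fold above CTR (interval 1.66 to 1.99, log2 0.86 ± 0.06 SE, adjusted p = 2.63e-08), and without DAT B, the lowest of its group, the log2 value was 0.93. CX3 was 0.88 of CTR (0.81 to 0.96, log2 -0.18 ± 0.06 SE, adjusted p = 0.034) and 0.49 of DAT (0.44 to 0.53, adjusted p = 3.82e-09). The fall in CX3 passed in 10 of 21 alternative settings and kept its sign in all of them. It was not called with a block for the replicate letter (adjusted p = 0.0501), nor without any single CTR library, CX3 A, CX3 B or DAT C (adjusted p = 0.055 to 0.13). Other settings without the call included library size alone as the scale, reverse-strand counts and the test against 1.2-fold. The fall was called without CX3 A and DAT B together (log2 -0.14, adjusted p = 1.2e-05).

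Genes for clathrin coats, for their uncoating and synaptic endocytosis were higher in DAT in 15 of 20 cases and lower in 1, with a median log2 of 0.45, and 2 were higher and 8 lower in CX3, with a median of 0.01. The count in DAT was also 15 higher without CX3 A and DAT B, and 14 with library size alone as the scale. Dnm1, the dynamin that pinches vesicles off the synaptic membrane, rose from 426 ± 4.95 CPM in CTR to 1224 ± 46.2 in DAT (log2 1.52, adjusted p = 9.09e-13) and stood at 396 ± 5.52 in CX3 (log2 -0.11, adjusted p = 0.046). The adaptor genes Ap2a1 and Ap2b1 took the same order as Synj1, with log2 values of 1.19 and 0.49 in DAT and -0.20 and -0.34 in CX3. The clathrin heavy chain gene Cltc, too, was higher in DAT (log2 0.33) and lower in CX3 (log2 -0.41). Pacsin1, for a membrane-bending partner of dynamin, rose in DAT (log2 1.07) and had a log2 of 0.03 in CX3 (adjusted p = 0.73). Synj2, the paralogue of Synj1 with wide tissue expression, rose in both groups instead, by log2 0.34 in CX3 and 0.49 in DAT. The 8 general neuron markers were likewise higher in DAT in 8 of 8 cases (median log2 0.61), and in CX3 5 were higher and 1 lower (median 0.15).

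**Figure D3:**
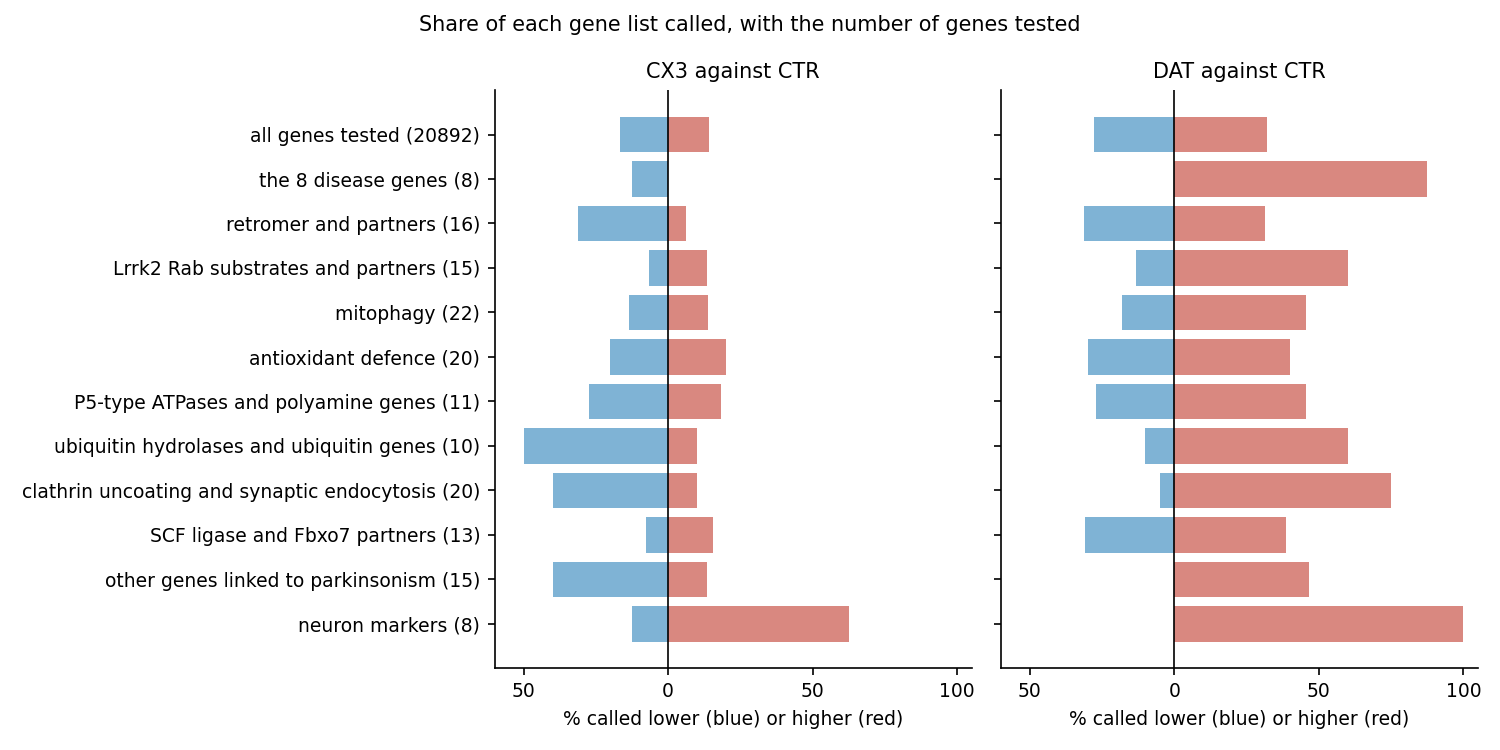
Share of the tested genes of each list (rows, number of genes in parentheses) called lower (blue, left) or higher (red, right) in CX3 against CTR and in DAT against CTR, for the pathway lists and the neuron markers; the other marker lists are not drawn. Among the lists drawn, the neuron markers, the 8 disease genes and the endocytosis genes have the longest red bars in DAT, where 32.0% of all genes were higher.

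Atp13a2 (ENSMUSG00000036622.15, chromosome 4 from 140986873 to 141007330) encodes a P5-type ATPase that exports polyamines from the lysosome. It had 137, 135 and 139 CPM in CTR, 145, 142 and 151 in CX3 and 267, 241 and 246 in DAT. DAT was 1.84-fold above CTR (1.71 to 1.97, log2 0.88 ± 0.05 SE, adjusted p = 1.67e-09), and CX3 was 0.58 of DAT (0.54 to 0.62). The change of Atp13a2 against CTR and that of Synj1 lay within 1 SE of each other, and without DAT B it was log2 0.91, below the 0.93 of Synj1. The CX3 libraries were all slightly above CTR, by a fold of 1.07 (0.99 to 1.14), which did not pass the test (adjusted p = 0.16). It was called in 4 of 21 alternative settings, including the one without DAT B (log2 0.10, adjusted p = 0.034).

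The other P5-type ATPases differed among themselves. Among 11 of these and of genes of polyamine metabolism, 5 were higher and 3 lower in DAT and 2 were higher and 3 lower in CX3. Atp13a1, an ATPase of the endoplasmic reticulum, fell in CX3 (log2 -0.36) and rose in DAT (log2 0.30), and Atp13a4 fell in both (log2 -0.35 and -0.52). Atp13a3, named after its values were seen, rose in DAT as Atp13a2 did (log2 0.29, adjusted p = 0.00024) and had a log2 of -0.05 in CX3 (adjusted p = 0.51). Atp13a5 rose in CX3 (log2 0.32) and had a log2 of 0.11 in DAT (adjusted p = 0.22). Sat1, which encodes the enzyme that acetylates polyamines for breakdown or export, went from 133 ± 2.49 CPM in CTR and 129 ± 2.29 in CX3 to 65.1 ± 10.9 in DAT (log2 -1.04 against CTR, adjusted p = 9.68e-08).

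Pink1 (ENSMUSG00000028756.12, chromosome 4 from 138313409 to 138326307) encodes the kinase that accumulates on damaged mitochondria and marks them for mitophagy. It had 412, 419 and 397 CPM in CTR, 421, 401 and 397 in CX3 and 513, 574 and 519.8 in DAT. DAT was 1.31-fold above CTR (1.22 to 1.40, log2 0.39 ± 0.05 SE, adjusted p = 8.24e-06), and CX3 and CTR overlapped at a fold of 0.99 (0.92 to 1.06). CX3 was lower than DAT by log2 -0.40 (adjusted p = 6.03e-06). Both results for DAT passed in 21 of 21 alternatives, and without DAT B the log2 of DAT over CTR was 0.33.

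Genes of mitophagy went in both directions. Of 22 tested, 10 were higher and 4 lower in DAT (median log2 0.00), and 3 were higher and 3 lower in CX3 (median 0.02). Tomm20, a subunit of the outer membrane import pore, rose from 248 ± 3.62 CPM in CTR to 320.0 ± 8.85 in CX3 and 349 ± 10.8 in DAT. Sqstm1, the receptor p62 that carries ubiquitinated cargo to autophagosomes, fell from 470.0 ± 6.46 to 386 ± 2.90 CPM in CX3 (log2 -0.29, adjusted p = 9.51e-05) and rose to 598 ± 25.3 in DAT (log2 0.35, adjusted p = 3.31e-06). Usp8, a deubiquitinase, fell in CX3 by log2 -0.32 and in DAT by -0.19. Without CX3 A and DAT B, 9 of the 22 were higher and 10 lower in DAT.

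Park7 (ENSMUSG00000028964.14, chromosome 4 from 150897133 to 150914437) encodes DJ-1, a small protein that protects cells under oxidative stress. It had 144, 141 and 140.2 CPM in CTR, 155, 146 and 143 in CX3 and 149, 178 and 148 in DAT. Library B of DAT was the highest of the 9, and DAT A and C lay close above the range of CTR. The log2 of DAT over CTR was 0.16 ± 0.06 SE (adjusted p = 0.047), but 0.06 without DAT B (adjusted p = 0.20), and the call held in 3 of 21 alternatives, being lost without any single library other than DAT A or DAT C (adjusted p = 0.056 to 0.20). CX3 overlapped with CTR (fold 1.04, interval 0.95 to 1.15, adjusted p = 0.50) and with DAT (log2 -0.09, adjusted p = 0.22).

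Of 20 tested genes of antioxidant defence, 8 were higher and 6 lower in DAT, and 4 were higher and 4 lower in CX3, with medians of 0.04 and 0.04. The 3 with the largest called change in CX3 were lower in both groups. Nfe2l2, the transcription factor NRF2, fell from 64.2 ± 0.882 CPM to 38.9 ± 1.64 in CX3 and 36.3 ± 1.14 in DAT (log2 -0.72 and -0.82). Hmox1, heme oxygenase 1, fell from 16.3 ± 0.249 to 8.44 ± 0.656 and 7.97 ± 0.595 CPM. Prdx6, a peroxiredoxin that is abundant in astrocytes, fell from 403 ± 8.95 to 221 ± 12.1 and 213 ± 15.5 CPM. Other genes of the list, named after their values were seen, rose. Gclm had a log2 of 0.42 in DAT, and Srxn1 of 0.31 in DAT and 0.18 in CX3 (adjusted p = 0.0064). The 6 astrocyte markers summed to 5625 to 5640 CPM in CTR, 3329 to 3580 in CX3 and 3572 to 3873 in DAT, with 6 of 6 lower in CX3 and 3 of 6 lower in DAT, and their part in these values was not tested.

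Promoter windows of the 250 bases before the start site were held by RefSeq (GRCm38.p6) for 7 of the 8 genes. They are counted from the start that RefSeq gives, which can differ from the GENCODE coordinates given for each gene. The Park7 window lies wholly inside the GENCODE gene, and windows of Lrrk2, Pink1, Atp13a2, Uchl1, Synj1 and Fbxo7 reach past the GENCODE start. A set of 8 motifs was searched on both strands, and the windows of Pink1 and Park7 are shown because they share a match to the core of the NRF1 motif (letters TGCGCA), which 6.43% of all 32851 windows hold. Capitals mark this core and the GC box (GGGCGG, or CCGCCC on the other strand), which 32.7% of all windows hold.
Pink1, chr4:138326297-138326546, minus strand: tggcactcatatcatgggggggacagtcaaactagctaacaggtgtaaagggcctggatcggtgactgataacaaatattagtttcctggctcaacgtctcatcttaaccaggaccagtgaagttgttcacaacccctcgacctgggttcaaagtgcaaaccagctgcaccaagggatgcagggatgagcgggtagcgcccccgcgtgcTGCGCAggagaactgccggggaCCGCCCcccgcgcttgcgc
Park7, chr4:150909922-150910171, minus strand: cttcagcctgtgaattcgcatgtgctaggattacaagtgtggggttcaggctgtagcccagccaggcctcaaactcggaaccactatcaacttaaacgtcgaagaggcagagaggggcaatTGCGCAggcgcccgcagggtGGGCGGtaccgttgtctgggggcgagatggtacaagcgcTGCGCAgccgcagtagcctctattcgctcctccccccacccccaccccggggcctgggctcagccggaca
Park7 held 2 of these cores and Pink1 1, while their changes differed, with log2 0.39 for Pink1 and 0.16 for Park7 in DAT. A GC box stood in a window of Lrrk2, Pink1, Park7, Atp13a2 and Synj1, and in none of Uchl1 or Fbxo7. The other motifs searched were the TATA box (letters TATAAA), the CCAAT box (letters CCAAT), the E-box (letters CACGTG), the lysosomal gene motif that contains it (letters GTCACGTGA), the antioxidant response element (letters TGACNNNGC) and the cAMP response element (letters TGACGTCA). No window of the 7 genes held any of these, which occur in 12.4%, 33.8%, 6.02%, 0.621%, 10.2% and 1.55% of all windows. A match is a description of these letters and not of binding.

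Fbxo7 (ENSMUSG00000001786.14, chromosome 10 from 86021972 to 86051873) encodes an F-box protein, the substrate-binding part of an SCF ubiquitin ligase. It had 67.4, 64.5 and 64.7 CPM in CTR, 63.4, 59.9 and 59.1 in CX3 and 71.5, 74.8 and 68.5 in DAT, so that the groups took the order CX3, CTR, DAT without overlap. CX3 was lower than DAT (fold 0.85, interval 0.79 to 0.92, log2 -0.23 ± 0.05 SE, adjusted p = 0.00099). This difference passed in 18 of 21 alternative settings, and not with library size alone (log2 -0.04, adjusted p = 0.50), on reverse-strand counts (log2 -0.12, adjusted p = 0.067) or against 1.2-fold (adjusted p = 0.67). The difference of DAT from CTR, log2 0.13 ± 0.05 SE (adjusted p = 0.039), held in 4 of 21 alternatives and turned to -0.020 with library size alone as the scale. Of the single libraries, leaving out CX3 B or DAT C kept the call, and leaving out any other ended it (adjusted p = 0.076 to 0.21). The antisense gene A230060F14Rik covers 5.08% of the exon bases of Fbxo7, and the counts of the separate strands added up to 1.10 to 1.11 times the count of both strands together. On these strands the log2 of DAT over CTR was -0.02 and 0.09, and neither passed. For CX3 over CTR the log2 was -0.11 (adjusted p = 0.12).

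Among 13 tested genes for SCF subunits and partners of Fbxo7, 5 were higher and 4 lower in DAT and 2 were higher and 1 lower in CX3. Fbxo9, another F-box gene, rose from 111 ± 0.819 CPM to 132 ± 2.81 in CX3 and 160.4 ± 5.29 in DAT. Psmf1, the proteasome inhibitor PI31 that binds Fbxo7, fell in CX3 (log2 -0.16) and rose in DAT (log2 0.34), in the same order of groups as Fbxo7. Cdk6, a cell cycle kinase bound by Fbxo7, fell in DAT by log2 -0.78 (adjusted p = 0.00019) and had a log2 of 0.30 in CX3 (adjusted p = 0.064).

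Uchl1 (ENSMUSG00000029223.12, chromosome 5 from 66676091 to 66687234) encodes a ubiquitin hydrolase that is among the most abundant proteins of neurons. It had 418, 418 and 403 CPM in CTR, 473, 455 and 428 in CX3 and 605, 774 and 596 in DAT. All DAT libraries were above all others, and DAT B was the highest by far. DAT was 1.59-fold above CTR (1.42 to 1.79, log2 0.67 ± 0.08 SE, adjusted p = 5.18e-06), and CX3 was 0.69 of DAT (0.61 to 0.77, log2 -0.54, adjusted p = 4.12e-05). Without DAT B these log2 values were 0.54 and -0.40. The CX3 libraries also lay above CTR, by a fold of 1.09 (0.97 to 1.23), which did not pass (adjusted p = 0.24) but did without DAT B, whose spread enters the fit (log2 0.14, adjusted p = 0.0029). The antisense gene Uchl1os shares 18.1% of the exon bases of Uchl1, and the counts of the separate strands added up to 1.27 to 1.32 times the count of both together. The log2 of DAT over CTR was 0.63 and 0.60 on the separate strands and passed on both.

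Of 10 tested ubiquitin and ubiquitin-handling genes, 6 were higher and 1 lower in DAT (median log2 0.19), and 1 was higher and 5 lower in CX3 (median -0.11). Uba1, which encodes the enzyme that activates ubiquitin, fell from 340.0 ± 6.36 to 218 ± 2.93 CPM in CX3 (log2 -0.64, adjusted p = 4.30e-08) and rose to 472 ± 17.0 in DAT (log2 0.47, adjusted p = 1.61e-07). Usp5, a deubiquitinase that recycles free ubiquitin chains, followed with log2 -0.31 in CX3 and 0.82 in DAT. Ubb, a polyubiquitin gene, fell in CX3 (log2 -0.34) and had a log2 of -0.01 in DAT (adjusted p = 0.94). The 1 gene of the list that was higher in CX3, named after its values were seen, was Bap1, for another hydrolase of the family of Uchl1 (log2 0.15, adjusted p = 0.015).

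A further list held 15 tested genes that are linked to parkinsonism in people and are not among the 8. In DAT 7 were higher and none was lower (median log2 0.17), or 5 and 3 with library size alone as the scale, and in CX3 2 were higher and 6 lower (median -0.10). Eif4g1, a translation initiation factor gene, fell from 234 ± 7.36 CPM in CTR to 173 ± 4.99 in CX3 (log2 -0.44, adjusted p = 4.32e-06) and rose to 363 ± 10.8 in DAT (log2 0.63, adjusted p = 1.76e-08). Gch1, whose enzyme makes the cofactor of tyrosine hydroxylase, rose in CX3 from 7.90 ± 0.674 to 11.9 ± 0.528 CPM (log2 0.60, adjusted p = 7.52e-05) and had a log2 of 0.00 in DAT. Of the dopaminergic markers, 8 of 10 were higher in CX3, and in DAT 4 were higher and 4 lower.

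Library B of DAT and library A of CX3 departed from their groups in a way that followed the length of most, but not all, of the 8 genes. In DAT B, Uchl1 and Park7, with exons of 1632 and 2479 bases, departed from the mean of A and C by 29.0% and 20.0%, and Lrrk2 and Synj1, with 11834 and 8085 bases, by -25.0% and -14.6%. Vps35, with 8899 bases, departed by only 1.96%, and Fbxo7, with 6180 bases, by 6.81%, on the side of the shorter genes. In CX3 A, Uchl1 and Park7 departed by 7.13% and 6.90% and Lrrk2 and Synj1 by -14.5% and -9.51%, on the same sides as in DAT B. Fbxo7 and Vps35 departed there by 6.49% and 1.47%, against the order of length. Over all genes compared, the median departure of DAT B from A and C was 16.6% for genes of up to 2458 bases and -6.99% for those above 4936 bases. In CTR A, by comparison, the 8 genes departed by at most 4.34%.

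**Figure D4:**
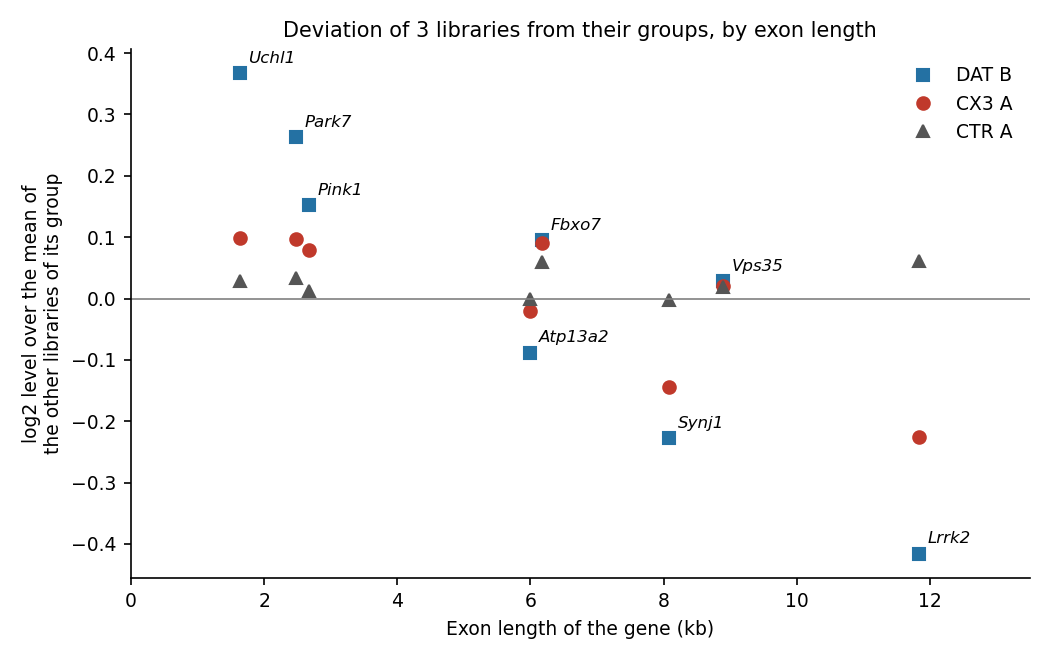
Log2 level of each of the 8 genes in DAT B (blue squares), CX3 A (red circles) and CTR A (grey triangles) over the mean of the other libraries of the same group, against exon length in kb. The blue squares run from 0.37 for Uchl1 to -0.42 for Lrrk2, and the grey triangles reach at most 0.06.

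Across the 9 libraries, the genes most like each of the 8 were sought among 14451 genes as those with the smallest root mean square difference of centred log2 CPM. Vps35 was closest to Vps26a, which encodes another subunit of retromer, at 0.017, and then to Arpp19 at 0.017. Park7 was closest to Clta, a clathrin light chain gene, at 0.015, and to Ddrgk1 at 0.024. Pink1 was closest to Nipsnap1, for a mitochondrial protein, at 0.025, and to Sae1 at 0.030, and Fbxo7 to Gnai2 at 0.020 and Ptdss2 at 0.027. The other genes had less close nearest neighbours. Synj1 was nearest to Gcn1l1 at 0.028 and Dag1 at 0.032, and Lrrk2 to Prrg3 at 0.034 and Tulp4 at 0.034. Atp13a2 was nearest to Rnft2 at 0.039 and Arhgap44 at 0.041, and Uchl1 to Ly6h at 0.041 and Mtfp1 at 0.048. Among the 8 themselves, Pink1 and Uchl1 had a correlation of 0.97 over the 9 libraries, Atp13a2 and Synj1 of 0.96, and Vps35 and Atp13a2 of -0.94. These libraries fall into 3 groups and share scaling, so the correlations describe mainly the order of the group means.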

How the data were processed

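Tissue RNA from the substantia nigra gave 9 libraries, 3 per group. The groups follow the labels, which state the mouse line and vector for CX3 and DAT but only GFP for CTR. The authors deposited unnormalized counts of reads per gene, made according to their methods with Trimmomatic, STAR and featureCounts, with mm10 named in the submitters' processing notes, although the files are laid out like gene counts written by STAR itself. The read length was 76 bases. The 55450 identifiers were matched to GENCODE M21 (GRCm38). The methods name a stranded kit, while the reverse strand held 49.8% to 49.9% of strand-specific counts, so counts of both strands together were used. Rows that name no gene were left out, with 13.8% to 22.0% of reads unmapped, 3.36% to 4.54% in several places, 4.15% to 7.73% outside genes and 4.34% to 5.67% ambiguous. Reads outside genes made up 4.15% to 4.31% in DAT, 7.47% to 7.61% in CTR and 6.39% to 7.73% in CX3. Mitochondrial genes held 4.33% to 4.64% of the counts on genes in DAT, 6.54% to 6.83% in CTR and 6.12% to 6.49% in CX3. The part that these differences between groups had in the results was not tested.

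Genes kept by edgeR's filterByExpr (20892) were scaled by TMM and fitted with edgeR 4.0.16 (R 4.3.3) by quasi-likelihood over all 9 libraries, with no covariate, and p-values were adjusted after Benjamini and Hochberg over all genes tested. A gene was called at an adjusted p below 0.05. Intervals are 95% intervals of the fit, and for a single gene 3 counts equal 0.0779 to 0.151 CPM. Counting intervals and this floor cover counting error only. The script was tested on simulated data. The 8 genes and the gene lists were chosen with earlier results of these data known. From each list the text names up to 3 called genes with the largest change in CX3 against CTR and up to 3 more with over 2-fold change between any groups. A gene that this rule names is not reported here. Profiles for likeness used log2 of CPM plus 0.5, and genes with a mean of at least 1 CPM. Of 249 listed symbols 1, Mapk8ip4, was not matched. In all, 21 alternatives were tried: DESeq2 1.42.0 size factors and test, library size alone, other filters, limma-voom (limma 3.58.1), a test against 1.2-fold, the counts of each strand, only the groups compared, a replicate block, leaving out each library and, chosen after seeing the data, leaving out CX3 A and DAT B together. Other steps used Python 3.11.15 with pandas 2.3.3, numpy 2.4.6 and matplotlib 3.10.9.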

Additional observations from a re-analysis of the deposited data

How the results depend on the processing

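Under the 21 alternatives the higher levels of Pink1, Atp13a2, Uchl1 and Synj1 in DAT, against CTR and against CX3, kept their direction and passed each time. Lrrk2 passed in 20 against CTR and in 19 against CX3, where library size alone gave -0.22 (adjusted p = 0.064). The cause of the changes below was not tested.

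With a test against 1.2-fold, 1763 genes were called for CX3 over CTR, 8228 for DAT over CTR and 7989 for CX3 over DAT, and 0 and 4 of the 8 genes in the first and second of these comparisons. For CX3 over CTR, 0 of the 8 were called on reverse-strand counts, 3 with only these groups in the fit and 4 without CX3 A and DAT B together. When a single library was left out, 0 to 3 were called. The count was 0 without any single CTR library, CX3 A, CX3 B or DAT C, and 3 without DAT B. The share of all genes called is not set beside these counts, which show only how the calls of the 8 genes moved. The replicate letters did not pair the libraries, since same-letter libraries of different groups correlated between -0.51 and 0.41 in their deviations and 2 of 9 correlated best with their own letter. With a replicate block, 0, 6 and 6 of the 8 genes and 5805, 12144 and 11955 of all genes were called for CX3 over CTR, DAT over CTR and CX3 over DAT.

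Library size alone moved the median of all genes by log2 -0.15 for DAT over CTR and 0.20 for CX3 over DAT, and the share of calls that were higher went from 53.4% to 37.8% and from 46.8% to 66.7%, and from 45.9% to 58.9% for CX3 over CTR. On that scale the list medians for DAT over CTR that turned below 0 were those of mitophagy (-0.15), dopaminergic neurons (-0.11), antioxidant defence (-0.10) and P5-type ATPases and polyamine genes (-0.04). The sign changed in the following cases, none of them called under that alternative. For CX3 over CTR, library size alone gave 0.037 for Lrrk2, 0.035 for Pink1 and 0.026 for Vps35, keeping all genes with at least 1 count gave 0.027, 0.025 and 0.016, reverse-strand counts gave 0.0066 for Lrrk2 and 0.018 for Vps35, and leaving out CX3 A and DAT B gave 0.064 for Lrrk2. For DAT over CTR, Fbxo7 was at -0.020 with library size alone and -0.018 on reverse-strand counts. For CX3 over DAT, Park7 was at 0.10 with library size alone and 0.010 on forward-strand counts. With 1 library left out, Lrrk2 ran from -0.052 to 0.065 and Pink1 from -0.039 to 0.0056 for CX3 over CTR, and Park7 from -0.12 to 0.0088 for CX3 over DAT. Of 504 values of single genes over all alternatives, 406 kept both direction and side of the threshold.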

Other observations

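Beside the neuron, microglia, astrocyte and dopaminergic markers, other marker lists differed between the groups, and these values are given without an explanation. The 4 endothelial markers summed to 131 to 133 CPM in CTR, 183 to 192 in CX3 and 251 to 259 in DAT, with 2 of 4 higher in CX3 and 4 of 4 in DAT. The 6 markers of the B lineage summed to 304 to 323, 73.2 to 78.0 and 10.7 to 14.1 CPM, with 6 of 6 lower in both. The monocyte and neutrophil markers summed to 53.3 to 53.7, 30.8 to 31.3 and 7.10 to 7.70 CPM, of which Ly6c2 held 39.2 CPM in CTR and 8.70 in CX3. Of the 7 tested, 4 were lower in CX3 and 2 higher, Ccr2 (log2 1.35) and Chil3 (log2 2.69), and 7 were lower in DAT. The T cell markers summed to 52.6 to 54.2, 45.3 to 48.3 and 12.5 to 14.9 CPM. The pituitary markers summed to 61.3 to 64.0, 6.09 to 6.44 and 18.5 to 23.6 CPM, with Prl at 0 in all DAT libraries. The erythroid markers summed to 242 to 267, 94.5 to 108 and 187 to 266 CPM, the oligodendrocyte precursor markers to 172 to 174, 130 to 136 and 201 to 209 CPM, and the cerebellar granule markers to 127 to 130, 137 to 140 and 186 to 194 CPM. The 4 markers of cortical and hippocampal neurons summed to 48.9 to 51.7, 49.7 to 57.9 and 55.5 to 64.6 CPM, with 4 of 4 higher in DAT (median log2 0.82) and none called in CX3. The 6 oligodendrocyte markers summed to 20179 to 20259, 21399 to 21788 and 14592 to 15524 CPM, with 2 higher and 3 lower in DAT.

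Genes of different length also differed in their median change. For DAT over CTR, the median log2 was -0.23 over the 6965 tested genes with exons of up to 2458 bases, 0.05 over the 6963 of middle length and 0.13 over the 6964 longest. For CX3 over CTR these medians were -0.01, 0.02 and -0.02. Of the 8 genes, Uchl1 is in the shortest class, with a log2 of 0.67 in DAT, and Park7 and Pink1 are in the middle one, with 0.16 and 0.39. The longest class holds Atp13a2 with 0.88, Synj1 with 0.86, Lrrk2 with 0.40, Fbxo7 with 0.13 and Vps35 with -0.09.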
